A study of Homo sapiens with 12 samples.

Results

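The genes of the cereblon ubiquitin ligase and of its activation by NEDD8 were followed across the 4 groups of a G401 experiment. They are CRBN, DDB1, CUL4A, CUL4B, RBX1, UBE2G1, UBE2D3, NEDD8, UBE2M and COPS5. The genes were chosen by name from knowledge of the pathway, with earlier results of these data known. All 10 were found by gene identifier among the 57820 genes of the deposited tables, and all 10 passed the filter on low counts that left 15750 genes for testing.

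Cereblon is the substrate receptor of a cullin-RING ubiquitin ligase. DDB1 joins it to a cullin 4 scaffold (CUL4A or CUL4B), and RBX1 at the other end of the scaffold brings in a ubiquitin-conjugating enzyme. The ligase becomes active when the small protein NEDD8 is joined to the cullin, and the COP9 signalosome, whose catalytic subunit is COPS5, takes it off again. Thalidomide analogues and degraders built from them bind cereblon and bring it new proteins to ubiquitinate, and dBRD9-A is a degrader of that kind, directed at BRD9, a subunit of the non-canonical SWI/SNF (BAF) chromatin remodelling complex.

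The libraries came from G401, an established rhabdoid tumour line whose labelled genotype is SMARCB1(-/-) in every group, so that the controls lack this SWI/SNF subunit too. Doxycycline induced GFP or SMARCB1, and each was combined with 24 h of DMSO (the solvent) or dBRD9-A, with 3 replicates in each of the 4 groups: GFP in DMSO, GFP with dBRD9-A, SMARCB1 in DMSO and SMARCB1 with dBRD9-A. Neither the length of the doxycycline treatment, the dose of dBRD9-A nor the number of clones behind the inducible lines is given in the sources used here. Nothing in the labels says that replicates were separate cultures, so p-values measure the spread between these libraries, which may be technical.

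Libraries held 34974281 to 58536059 gene counts. SMARCB1 had 0 to 2 counts in the 6 GFP libraries and 53033 to 110893 in the 6 SMARCB1 libraries, as labelled, and its mean was 1875 CPM (counts per 1000000 gene counts of a library) in DMSO but 1307 CPM with dBRD9-A, a difference that goes with every comparison of SMARCB1 with GFP made in dBRD9-A. Of the markers listed for a rhabdoid tumour line, VIM, KRT8 and KRT18 had at least 45667 counts in every library. MUC1, from the same list, went the other way with 2 to 17. Of 8 markers of blood, endothelium, liver and nephron, 3 had no count in any library and none had over 10. In a bulk library, fewer cells of a kind and less RNA per cell cannot be told apart.

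CUL4A and CUL4B are paralogs, so it matters whether reads could be assigned to the right gene. The coding sequences of their principal transcripts in GENCODE 29 were compared in windows of 60 bases, and the most alike pair is printed here with the differing bases in capitals. It covers coding bases 389 to 448 of CUL4A and 851 to 910 of CUL4B.
CUL4A: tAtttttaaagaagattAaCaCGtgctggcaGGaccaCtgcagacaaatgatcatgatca
CUL4B: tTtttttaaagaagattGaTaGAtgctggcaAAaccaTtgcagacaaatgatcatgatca
Even there 8 of 60 bases differed. None of the 2290 stretches of 75 bases in the CUL4A transcript occurred among the 3190 of CUL4B. The processed pseudogene CUL4AP1 had 0 CPM in every library.

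The 250 bases before a transcription start are shown for both cullin 4 genes and for UBE2D3, because CUL4B and UBE2D3 were the members with the largest rises and CUL4A is the paralog of CUL4B. They are RefSeq sequences of GRCh38.p14, printed 5′ to 3′ on the gene's own strand with motif matches in capitals. The windows are chr13:113207943-113208192 (+) for CUL4A, chrX:120561454-120561703 (−) for CUL4B and chr4:102828181-102828430 (−) for UBE2D3.
CUL4A: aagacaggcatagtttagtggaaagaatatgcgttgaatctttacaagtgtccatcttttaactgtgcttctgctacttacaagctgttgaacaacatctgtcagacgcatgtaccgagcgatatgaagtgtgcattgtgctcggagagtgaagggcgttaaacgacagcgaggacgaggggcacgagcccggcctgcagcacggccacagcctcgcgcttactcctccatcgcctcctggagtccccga
CUL4B: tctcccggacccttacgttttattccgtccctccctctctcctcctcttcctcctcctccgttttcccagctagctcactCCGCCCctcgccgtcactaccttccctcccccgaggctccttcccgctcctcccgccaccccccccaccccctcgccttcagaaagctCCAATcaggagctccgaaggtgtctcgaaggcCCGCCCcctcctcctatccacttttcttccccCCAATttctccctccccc
UBE2D3: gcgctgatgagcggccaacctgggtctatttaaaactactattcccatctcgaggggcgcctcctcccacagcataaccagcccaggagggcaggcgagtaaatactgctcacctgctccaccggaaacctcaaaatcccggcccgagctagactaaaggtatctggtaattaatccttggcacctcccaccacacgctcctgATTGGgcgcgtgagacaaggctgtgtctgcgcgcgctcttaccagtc
The table lists 4 starts for CUL4A, 4 for CUL4B and 6 for UBE2D3, and the window shown is the one with the fewest exon bases of the gene. That start lies 14341 bases from the start of the principal transcript for CUL4B, 1351 bases for CUL4A and 1058 bases for UBE2D3. Gene counts do not tell which start was used. The CUL4B window held the CCAAT box (CCAAT or ATTGG) and the GC box (GGGCGG or CCGCCC), the UBE2D3 window held the CCAAT box, and the CUL4A window held none of 8 motifs searched on both strands. The other 6 were CACGTG (E-box), CCGGAAG (ETS), GCCATCTT (YY1), TGACGT (CRE), TGANTCA (AP-1) and the NRF1 motif. Of 35116 RefSeq windows of this length, 32% held the CCAAT box and 42.6% the GC box, and among 9 members with a window these were found in 3 and 7. The windows of DDB1 and UBE2M, which count among the 7, lay in exons of the gene over all 250 bases. Those of CRBN, RBX1 and NEDD8 overlapped exons in part. A match is a description of letters, and binding was not measured.

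The members were expressed at very different levels. Per kilobase of the principal transcript, the mean in GFP cells in DMSO was highest for NEDD8, at 196 ± 8.68 CPM per kb (SD, n = 3), followed by UBE2D3 at 159 ± 0.788 and DDB1 at 112 ± 0.749. COPS5 (81 ± 0.369), CUL4A (71.2 ± 0.839), UBE2M (59.1 ± 1.33) and RBX1 (49 ± 0.216) lay between. UBE2G1 (28.3 ± 0.947) and CUL4B (27.6 ± 0.0698) were close together, and CRBN was lowest at 14 ± 0.569 CPM per kb. The substrate receptor thus had the lowest level of the 10 per length in that group, far below its adaptor DDB1. The lengths are those of single annotated transcripts, and the isoforms present were not measured.

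**Figure D1:**
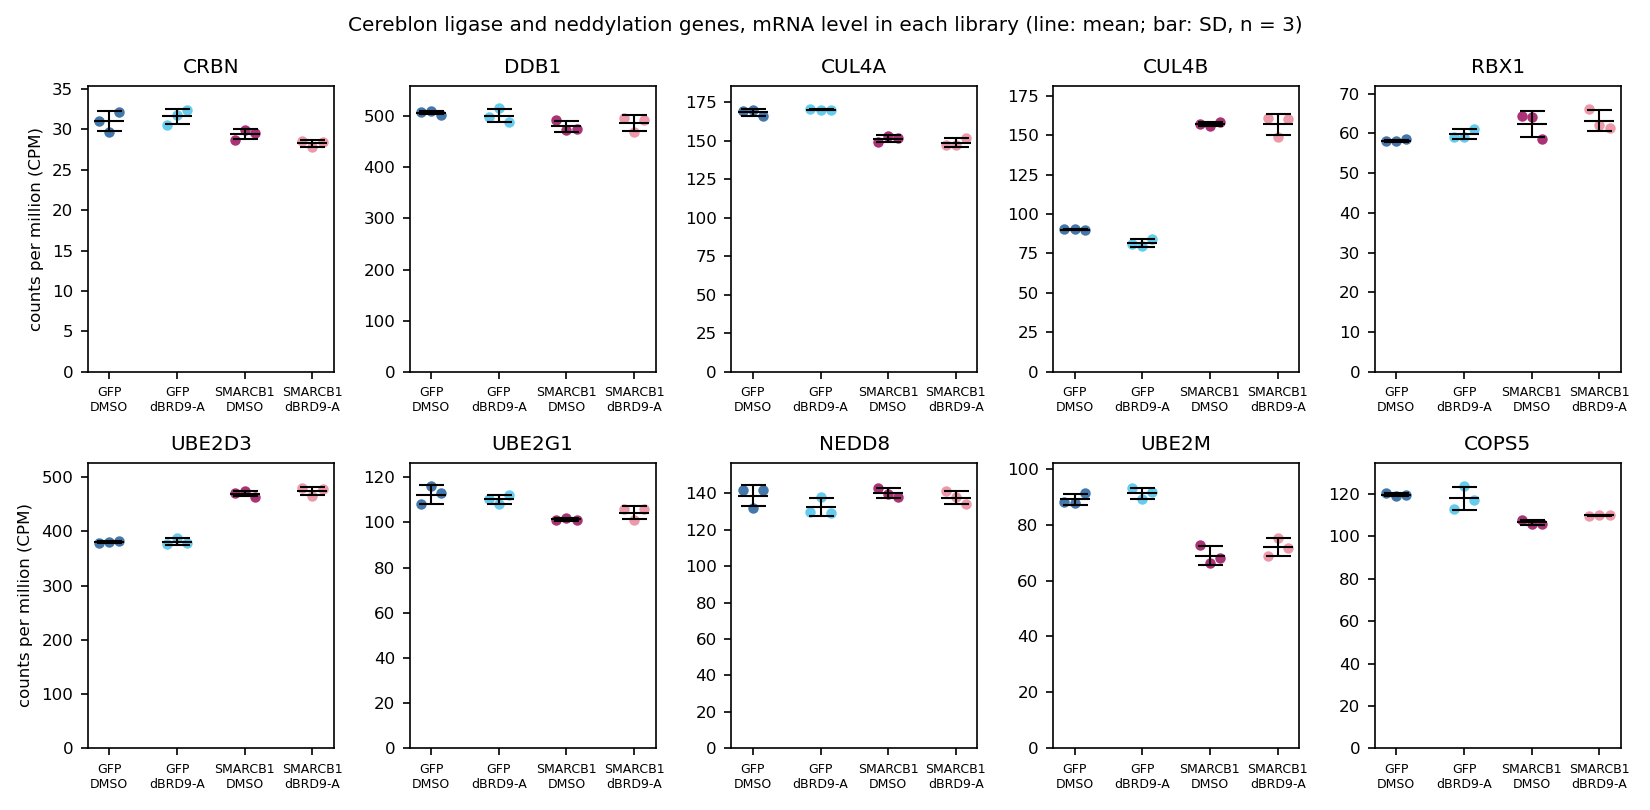
Level of each member in the 12 libraries, in CPM on TMM-scaled library sizes (y axis from 0), with points for libraries, a line for the mean and a bar for the SD (n = 3). CUL4B sits at 79.7 to 90.4 CPM in GFP libraries and 149 to 161 in SMARCB1 libraries, UBE2D3 is higher and UBE2M and CUL4A lower in SMARCB1 libraries, and CRBN stays between 27.8 and 32.4 CPM throughout.

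The first question was what SMARCB1 itself did to these genes, in DMSO. CUL4B was 1.74-fold higher and UBE2D3, a ubiquitin-conjugating enzyme, 1.24-fold higher in SMARCB1 cells, while UBE2M, the enzyme that passes NEDD8 to cullins, was 1.29-fold lower. CUL4A, UBE2G1 and COPS5 were lower by 1.11-fold to 1.12-fold relative to the typical gene, a fall that was gone when libraries were scaled to spike-in RNAs (log2 fold changes of -0.00 to 0.02). In all, 8 of 10 members had an adjusted p under 0.05 (quasi-likelihood test of edgeR), with 3 higher and 5 lower. Over all genes 65% passed, 33.5% higher and 31.6% lower, so the members' share was near the background. The median log2 fold change of the members was -0.08, against -0.00 over all genes, with a range of -0.37 to 0.80.

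The receptor, CRBN (ENSG00000113851.9, chr3:3144628-3179727 on the minus strand of GRCh38 in GENCODE 29), had 31.1, 29.7 and 32.2 CPM in GFP cells in DMSO, and 30.6, 31.8 and 32.4 CPM once dBRD9-A was added. It had 28.7, 29.9 and 29.6 CPM in SMARCB1 cells in DMSO and 28.6, 27.8 and 28.4 CPM in SMARCB1 cells with dBRD9-A. The DMSO groups overlapped by 1 pair of libraries, whereas with dBRD9-A every SMARCB1 library lay below every GFP library. The log2 fold change of SMARCB1 against GFP was -0.08 (SE 0.04, adjusted p 0.102) in DMSO, with a 95% interval of -0.16 to 0.01, and -0.16 (SE 0.04, adjusted p 0.00239) with dBRD9-A. These values were not shown to differ, since the interaction was -0.08 (SE 0.06, adjusted p 0.523). Without replicate 2 of GFP in DMSO the value in DMSO passed as well, at -0.10 (adjusted p 0.0398). CRBN overlaps TRNT1 on the opposite strand, which had 26.7 to 33 CPM. With SMARCB1 in DMSO, TRNT1 fell by 0.22 on the log2 scale in edgeR's test (adjusted p 0.000198). Whether the counting used strand is not given, and an effect of this overlap on CRBN counts was not tested.

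DDB1, the adaptor (ENSG00000167986.9), had 508, 509 and 503 CPM in GFP cells in DMSO and 492, 472 and 475 CPM in SMARCB1 cells in DMSO. The groups did not overlap, but the distance between them was small, a difference of -0.08 on the log2 scale (SE 0.03, adjusted p 0.0248). Leaving out replicate 1 or 2 of GFP in DMSO, or replicate 2 or 3 of SMARCB1 in DMSO, ended that call (adjusted p 0.0586 to 0.0968). With dBRD9-A, GFP cells had 499, 515 and 489 CPM and SMARCB1 cells 497, 468 and 492, which overlapped (log2 fold change -0.05, SE 0.03, adjusted p 0.19). DDB1 overlaps TKFC on the opposite strand, which had 13.8 to 23.6 CPM. In edgeR's test TKFC fell by 0.45 on the log2 scale with SMARCB1 in DMSO (adjusted p 2.52e-06).

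Relative to the typical gene the cullin scaffolds went in opposite directions, although CUL4A was at 0.01 in DMSO on the spike-in scale. CUL4B (ENSG00000158290.12, chrX:120524609-120575794, minus strand), which also carries a nuclear localisation signal that CUL4A lacks, had 90.2, 90.4 and 89.9 CPM in GFP cells in DMSO and 157, 156 and 158 CPM in SMARCB1 cells in DMSO. With dBRD9-A it had 81.2, 79.7 and 84.2 CPM in GFP cells and 161, 149 and 160.3 CPM in SMARCB1 cells. Every SMARCB1 library was far above every GFP library, and the log2 fold change was 0.80 (SE 0.03, adjusted p 1.97e-13) in DMSO and 0.94 (SE 0.03, adjusted p 2.96e-14) with dBRD9-A. These calls held in each of 12 fits that left out 1 library, and CUL4B overlaps no other gene of GENCODE 29.

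CUL4A (ENSG00000139842.10, chr13:113208193-113267108, plus strand) had 169, 170.1 and 166 CPM in GFP cells in DMSO and 149, 153 and 152 CPM in SMARCB1 cells in DMSO. With dBRD9-A the levels were 170.3, 170.1 and 169.7 CPM in GFP cells and 147, 147 and 152 CPM in SMARCB1 cells. GFP and SMARCB1 libraries did not overlap under either treatment. The log2 fold change was -0.15 (SE 0.02, adjusted p 2.48e-05) in DMSO and -0.19 (SE 0.02, adjusted p 2.23e-06) with dBRD9-A. CUL4A overlaps PCID2 on the opposite strand, which rose by 0.18 in DMSO (adjusted p 6.08e-05) and had 61.9 to 77.6 CPM, and whether the counting used strand is not given in the sources used here.

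The balance of the scaffolds can be read within a library, where no scaling enters. The log2 ratio of CUL4B to CUL4A counts was -0.90, -0.91 and -0.89 in GFP cells in DMSO and -1.07, -1.09 and -1.01 in GFP cells with dBRD9-A. It was 0.08, 0.03 and 0.06 in SMARCB1 cells in DMSO and 0.12, 0.01 and 0.08 in SMARCB1 cells with dBRD9-A. CUL4B counts thus went from below CUL4A counts in all 6 GFP libraries to just above them in all 6 SMARCB1 libraries. Per kilobase, CUL4B made up 28 ± 0.187% of cullin 4 mRNA in GFP cells in DMSO and 43 ± 0.362% in SMARCB1 cells in DMSO (SD, n = 3). With dBRD9-A the shares were 25.8 ± 0.56% in GFP cells and 43.2 ± 0.934% in SMARCB1 cells (SD, n = 3). On the annotated lengths used, CUL4A was the larger share in each group, unlike in the counts of SMARCB1 cells. The summed level of both was 98.8 ± 0.908 and 112 ± 0.647 CPM per kb in GFP and SMARCB1 cells in DMSO. Shares and sums rest on 1 annotated transcript per gene. It has 2364 bases for CUL4A (2277 coding) and 3264 for CUL4B (2739 coding). Isoforms present were not measured, so which scaffold had more mRNA is not settled.

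Tested over libraries, with labels exchanged within each treatment, the log2 ratio was higher by 1.04 in SMARCB1 cells in a 2-sided exact permutation test (p = 0.005, the smallest that 400 arrangements can give). Within DMSO alone the difference was 0.96 (SE 0.01) and within dBRD9-A 1.13 (SE 0.04), each with an exact permutation p of 0.10, the smallest possible with 3 against 3. For dBRD9-A against DMSO it was -0.16 (SE 0.03, exact permutation p 0.10) in GFP cells and 0.02 (SE 0.03, exact permutation p 0.60) in SMARCB1 cells, and -0.07 with labels exchanged within each cell state (exact permutation p 0.085). With all 6 tests adjusted together by Benjamini and Hochberg the first had an adjusted p of 0.03 and the last 0.12. The ratio was chosen for testing after the levels had been seen.

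**Figure D2:**
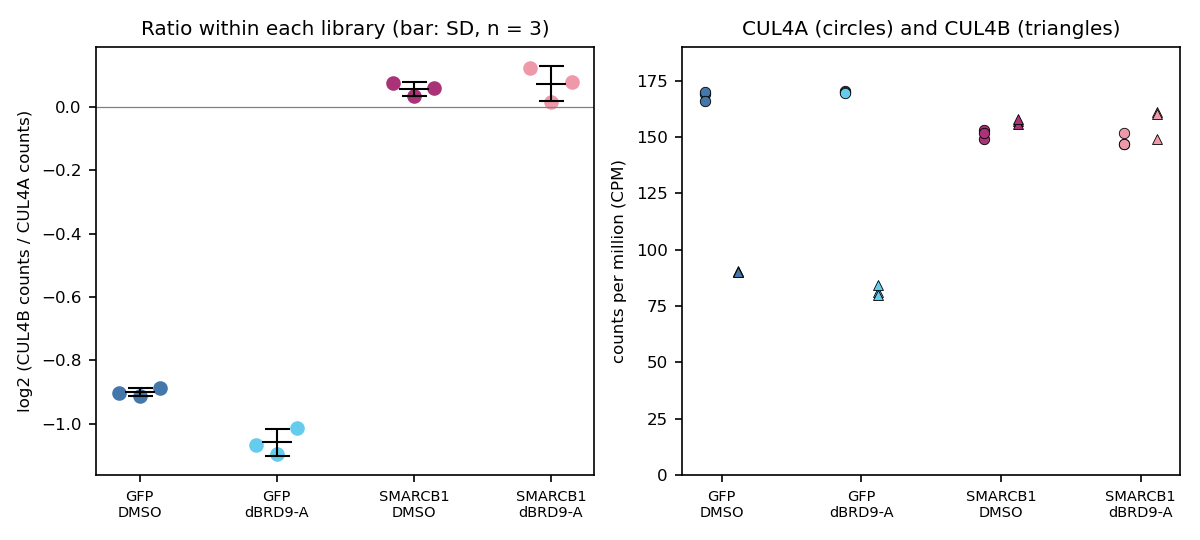
Left, log2 ratio of CUL4B to CUL4A counts in each library (points), with mean and SD (n = 3), where 0 means equal counts. Right, the levels of CUL4A (circles) and CUL4B (triangles) in CPM from 0. The ratio lies near -0.90 and -1.06 in the GFP groups and near 0.06 and 0.07 in the SMARCB1 groups.

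RBX1, the RING subunit (ENSG00000100387.8), had 58, 58.1 and 58.5 CPM in GFP cells in DMSO and 64.4, 64.2 and 58.7 CPM in SMARCB1 cells in DMSO, where replicate 3 stood next to the GFP libraries. The log2 fold change of 0.10 (SE 0.04, adjusted p 0.0333) was lost without any single GFP library in DMSO, without replicate 1 or 2 of SMARCB1 in DMSO (adjusted p 0.0629 to 0.143) and with no filter on low counts (adjusted p 0.0687). With dBRD9-A it had 59 to 61.2 CPM in GFP cells and 61.4 to 66.2 CPM in SMARCB1 cells, and 0.08 (SE 0.04, adjusted p 0.0826) did not pass.

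Of the ubiquitin-conjugating enzymes, UBE2D3 and UBE2G1, which are known to cooperate on proteins presented by cereblon (UBE2D3 placing the first ubiquitin and UBE2G1 extending the chain), differed in their response to SMARCB1. UBE2D3 (ENSG00000109332.15, chr4:102794383-102868896, minus strand) had 378, 379.9 and 382 CPM in GFP cells in DMSO and 471, 474 and 464 CPM in SMARCB1 cells in DMSO. The corresponding values with dBRD9-A were 377, 388 and 378 CPM and 480.5, 466 and 478 CPM. No SMARCB1 library came near a GFP library, with log2 fold changes of 0.31 (SE 0.02, adjusted p 4.7e-09) in DMSO and 0.32 (SE 0.02, adjusted p 3.05e-09) with dBRD9-A. Its 4 processed pseudogenes reached at most 1.07 CPM.

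UBE2G1 (ENSG00000132388.8) had 108, 116 and 113 CPM in GFP cells in DMSO and 101, 102 and 101 CPM in SMARCB1 cells in DMSO. These did not overlap, and the log2 fold change was -0.15 (SE 0.03, adjusted p 0.000268). With dBRD9-A it had 110.5, 108 and 112 CPM in GFP cells and 106, 101 and 106 CPM in SMARCB1 cells, a difference of -0.08 on the log2 scale (SE 0.03, adjusted p 0.0313). That call ended without replicate 1 or 3 of GFP with dBRD9-A, without replicate 2 of SMARCB1 with dBRD9-A (adjusted p 0.0668 to 0.111) and with no filter on low counts (adjusted p 0.083).

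In the NEDD8 cycle, relative to the typical gene, the modifier itself was not shown to change while its conjugating enzyme fell. NEDD8 (ENSG00000129559.8) had 142, 132 and 142 CPM in GFP cells in DMSO and 143, 139.5 and 138 CPM in SMARCB1 cells in DMSO, which overlapped. Its log2 fold change was 0.01 (SE 0.04, adjusted p 0.761), with a 95% interval of -0.06 to 0.09, and 0.06 (SE 0.04, adjusted p 0.188) with dBRD9-A. With spike-in scaling edgeR called both, at 0.18 (adjusted p 0.014) in DMSO and -0.27 (adjusted p 0.000383) with dBRD9-A. NEDD8 overlaps GMPR2 on the opposite strand, which had 79.6 to 114 CPM and fell by 0.33 on the log2 scale in DMSO (adjusted p 1.28e-08).

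UBE2M (ENSG00000130725.3, chr19:58555712-58558960, minus strand) had 88.2, 87.6 and 91.3 CPM in GFP cells in DMSO and 72.7, 66.2 and 67.9 CPM in SMARCB1 cells in DMSO. With dBRD9-A it had 93.1, 89.1 and 91.5 CPM in GFP cells and 68.9, 75.2 and 71.8 CPM in SMARCB1 cells. Every SMARCB1 library was lower than every GFP library. The log2 fold change was -0.37 (SE 0.04, adjusted p 1.38e-07) in DMSO and -0.34 (SE 0.04, adjusted p 4.82e-07) with dBRD9-A, and both calls held in all 12 fits with 1 library left out.

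COPS5 (ENSG00000121022.9), which removes NEDD8, had 120.4, 119 and 119.8 CPM in GFP cells in DMSO and 108, 106 and 106 CPM in SMARCB1 cells in DMSO. With dBRD9-A it had 113, 124 and 117 CPM in GFP cells and 109.8, 110.1 and 110.2 CPM in SMARCB1 cells. The groups did not overlap under either treatment, and the log2 fold change was -0.17 (SE 0.03, adjusted p 6.66e-05) in DMSO and -0.10 (SE 0.03, adjusted p 0.00579) with dBRD9-A.

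With dBRD9-A present, 7 of 10 members differed between SMARCB1 and GFP cells, 2 higher (CUL4B, UBE2D3) and 5 lower (CRBN, CUL4A, UBE2G1, UBE2M, COPS5). Over all genes 63.3% did, 33% higher and 30.4% lower. The median of the members was -0.06, against 0.01 over all genes. A limit of 0.3 on the absolute log2 fold change left 3 of 10 members (CUL4B, UBE2D3 and UBE2M) under either treatment. Over all genes it left 6536 of 15750 in DMSO and 6317 of 15750 with dBRD9-A, so the members do not stand out by their number.

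The second question was whether the degrader, which works through this ligase, went with altered mRNA of the ligase. In GFP cells 1 of 10 members changed, against 15.9% of all genes. That member was CUL4B, whose 3 libraries with dBRD9-A (79.7 to 84.2 CPM) lay below its 3 in DMSO (89.9 to 90.4 CPM), a difference of -0.14 on the log2 scale (SE 0.03, adjusted p 0.00508). The other 9 ranged from -0.07 for NEDD8 to 0.04 for RBX1. For CRBN the change was 0.03 (SE 0.04, adjusted p 0.744), with a 95% interval of -0.06 to 0.11, and for DDB1 it was -0.02 (SE 0.03, adjusted p 0.762), with an interval of -0.08 to 0.04.

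In SMARCB1 cells no member changed with dBRD9-A in edgeR's test, none had an unadjusted p under 0.05, and DESeq2 called none, against 1.93% of all genes in edgeR. The log2 fold changes ran from -0.06 for CRBN, with a 95% interval of -0.14 to 0.03, to 0.06 for UBE2M. The interaction, which asks whether dBRD9-A acted differently in SMARCB1 and GFP cells, was passed by no member and by 3.8% of all genes. CUL4B alone had an unadjusted p under 0.05 there (0.14, SE 0.04, adjusted p 0.115), and DESeq2 called none. Without replicate 2 of SMARCB1 with dBRD9-A, the library with the lowest CUL4B level of its group, the interaction of CUL4B passed at 0.17 (adjusted p 0.0132).

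**Figure D3:**
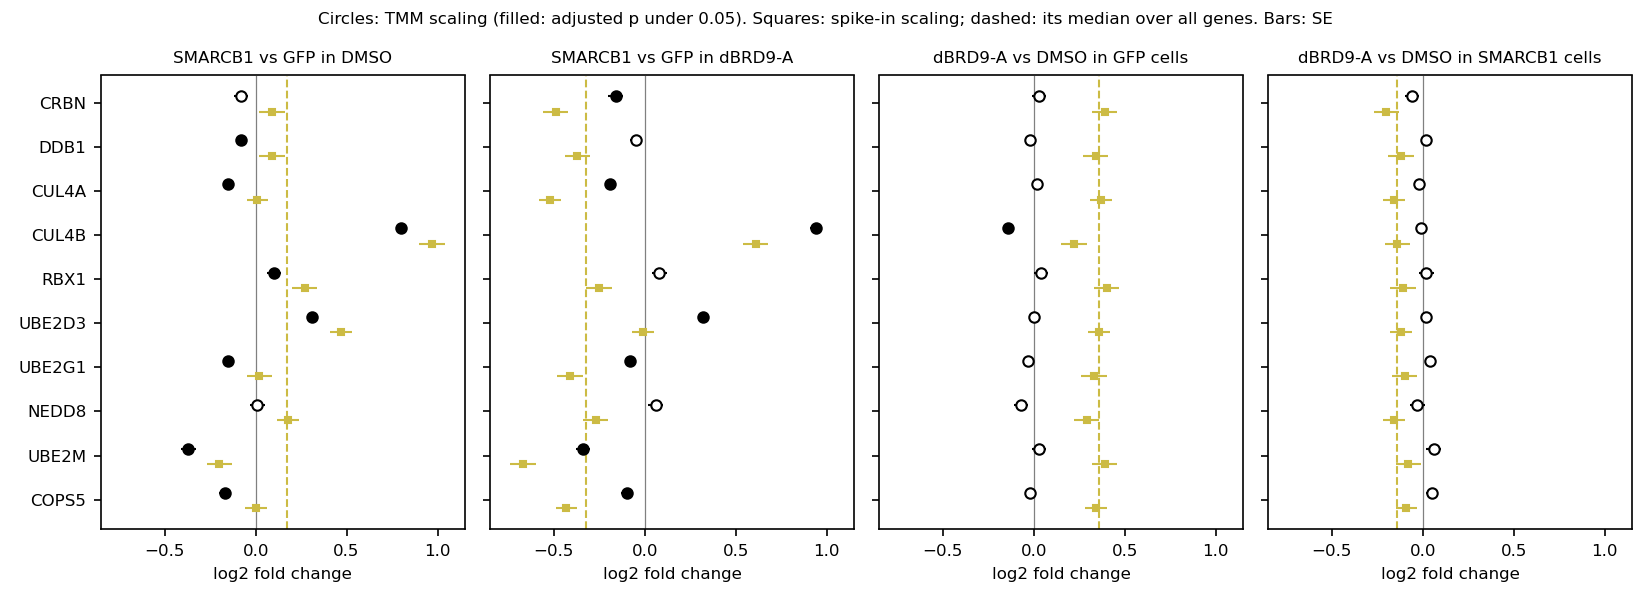
Log2 fold changes of the members (x axis) in 4 comparisons, with SE bars. Circles are TMM-scaled (filled where the adjusted p is under 0.05), squares are scaled to spike-in RNAs, and the dashed line is the median of all genes under spike-in scaling. CUL4B stands to the right of the other members in both SMARCB1 panels under either scaling. In GFP cells with dBRD9-A the squares gather near the shift of 0.36, so that the direction of CUL4B flips from -0.14 to 0.22 while it stays left of the line.

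The direction of small changes depended on the scale. The tables hold 40 synthetic spike-in RNAs, and with libraries scaled to them the typical gene was no longer at 0, and its median shift on the log2 scale was 0.17 for SMARCB1 in DMSO, -0.32 for SMARCB1 with dBRD9-A, 0.36 for dBRD9-A in GFP cells, -0.14 for dBRD9-A in SMARCB1 cells and -0.49 for the interaction. How the spike-ins were added is not given in the sources used here. Values elsewhere in the text are on the TMM scale, where the median over all genes is within 0.01 of 0, so that rises and falls are relative to the typical gene.

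On the spike-in scale 5 members changed with SMARCB1 in DMSO (59.8% of all genes), namely CUL4B, UBE2D3, RBX1 and NEDD8 higher and UBE2M lower. CUL4A (0.01), UBE2G1 (0.02), DDB1 (0.09) and COPS5 (-0.00) were no longer called. With dBRD9-A, 9 differed between SMARCB1 and GFP cells (71% of all genes), CUL4B higher and 8 lower, and UBE2D3 was at -0.01 (adjusted p 0.921). All 10 rose with dBRD9-A in GFP cells (71.8% of all genes), none changed in SMARCB1 cells (5.54%), and all 10 had a negative interaction (71.6%). Relative to the shift of all genes, CUL4B was at 0.81 for SMARCB1 in DMSO, 0.93 for SMARCB1 with dBRD9-A and -0.14 for dBRD9-A in GFP cells. The sign for CUL4B and UBE2M with SMARCB1 was therefore the same on both scales under either treatment, and for UBE2D3 in DMSO only.

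The other receptors that use DDB1 and cullin 4 were examined as a list of 24 genes, all of which were tested. With SMARCB1 in DMSO, 8 rose and 10 fell, with a median of -0.02 (11 and 5 on the spike-in scale, median 0.15). Over all genes 65% were called, 33.5% higher and 31.6% lower (59.8% in either direction on the spike-in scale). DDB2, the receptor that recognises DNA damaged by ultraviolet light, had 49.1, 48.2 and 50.3 CPM in GFP cells in DMSO and 26.1, 25.8 and 26.1 CPM in SMARCB1 cells in DMSO. The SMARCB1 libraries lay far below, with a difference of -0.92 on the log2 scale (SE 0.04, adjusted p 1.77e-13), and of -0.91 (SE 0.04, adjusted p 2.95e-13) with dBRD9-A. DCAF15, the receptor that aryl sulfonamides such as indisulam recruit, rose by 0.29 (SE 0.05, adjusted p 2.55e-05) in DMSO. With dBRD9-A present 6 rose and 12 fell (0 and 20 on the spike-in scale), against 63.3% of all genes called (71% on the spike-in scale), and the largest rise was that of DCAF6 at 0.25 (SE 0.03, adjusted p 6.31e-07), which on the spike-in scale was -0.08.

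With dBRD9-A in GFP cells, 1 receptor rose and 1 fell, against 15.9% of all genes called. On the spike-in scale all 24 rose, against 71.8% of all genes, which together shifted by 0.36. DCAF5, a receptor known from other work to act on incomplete SWI/SNF complexes in SMARCB1-deficient cells, had 48.4, 49 and 46.2 CPM in GFP cells in DMSO, and 54.6, 55 and 55.2 CPM once dBRD9-A was added. In SMARCB1 cells it had 36.3, 40.2 and 38.4 CPM in DMSO and 37, 38 and 37.7 CPM with dBRD9-A. It was higher with dBRD9-A in all 3 GFP libraries (0.20, SE 0.04, adjusted p 0.00115) and overlapped in SMARCB1 cells (-0.03, SE 0.04, adjusted p 0.833). With SMARCB1 in DMSO it fell by 0.32 on the log2 scale (SE 0.04, adjusted p 8.72e-07), a call lost on the spike-in scale (-0.15, adjusted p 0.0563). DTL, which targets the replication licensing factor CDT1, fell by 0.12 with dBRD9-A in GFP cells (SE 0.04, adjusted p 0.034), a call lost without replicate 1 or 2 of GFP in DMSO or replicate 2 or 3 of GFP with dBRD9-A (adjusted p 0.0843 to 0.159) and turned to 0.24 on the spike-in scale. In SMARCB1 cells none of the 24 changed with dBRD9-A in edgeR or DESeq2, against 1.93% of all genes in edgeR, and 4 had an unadjusted p under 0.05 in edgeR.

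Of 7 other cullin ligase genes (CUL1, CUL2, CUL3, CUL5, CUL7, CUL9 and the RING partner RNF7), none rose and 4 fell with SMARCB1 in DMSO, against 33.5% and 31.6% of all genes, with a median of -0.09 (2 and 1 on the spike-in scale, median 0.08). CUL2, the scaffold of the von Hippel-Lindau ligase, had 99.5, 96.6 and 99.2 CPM in GFP cells in DMSO and 78.2, 79 and 79.8 CPM in SMARCB1 cells in DMSO. The libraries did not overlap (-0.32, SE 0.03, adjusted p 2.89e-08; -0.15 and adjusted p 0.0494 on the spike-in scale). With dBRD9-A none of the 7 changed in GFP or SMARCB1 cells by edgeR or DESeq2, with 1 unadjusted p under 0.05 in each by edgeR. Over all genes 15.9% and 1.93% were called. With spike-in scaling all 7 rose in GFP cells and none was called in SMARCB1 cells, against 71.8% and 5.54% of all genes.

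Among 10 ubiquitin-activating and ubiquitin-conjugating enzymes and ARIH ligases, 5 rose and 2 fell with SMARCB1 in DMSO, near the 65% of all genes called, with a median of 0.09 (7 and 2 on the spike-in scale, median 0.26). UBA6, an E1 enzyme that activates ubiquitin, rose by 0.25 (SE 0.03, adjusted p 1.44e-07). ARIH2, a ligase that partners with neddylated cullins, had 145, 147 and 147 CPM in GFP cells in DMSO and 107, 114 and 107 CPM in SMARCB1 cells in DMSO, lower in every SMARCB1 library (-0.42, SE 0.03, adjusted p 4.97e-10). With dBRD9-A none of the 10 changed in either cell state by edgeR or DESeq2, against 15.9% and 1.93% of all genes, with 2 unadjusted p under 0.05 in GFP cells and 0 in SMARCB1 cells. All 10 rose in GFP cells on the spike-in scale, where 71.8% of all genes were called.

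Among 8 other genes of NEDD8 conjugation, 4 rose and 1 fell with SMARCB1 in DMSO, near the 65% of all genes called, with a median of 0.17 (6 and 0 on the spike-in scale, median 0.34). With dBRD9-A present 4 rose and 1 fell as well, against 0 and 5 on the spike-in scale. Over all genes 63.3% and 71% were called on these scales. DCUN1D3, a scaffold that helps to place NEDD8 on cullins, had 13.6, 12.7 and 14.2 CPM in GFP cells in DMSO and 19, 18.7 and 18.8 CPM in SMARCB1 cells in DMSO, a clear separation (0.48, SE 0.06, adjusted p 6.08e-07). DCUN1D4, of the same family, was the member of the list that fell (-0.26, SE 0.03, adjusted p 2.09e-06), a call lost on the spike-in scale (-0.09, adjusted p 0.247). UBE2F, the other NEDD8-conjugating enzyme, which serves CUL5, rose by 0.43 (SE 0.05, adjusted p 1.77e-07) where UBE2M fell, and was named after its values were seen. With dBRD9-A none of the 8 changed in either cell state by edgeR or DESeq2, against 15.9% and 1.93% of all genes, with 2 unadjusted p under 0.05 in GFP cells and 0 in SMARCB1 cells. All 8 rose in GFP cells on the spike-in scale, against 71.8% of all genes called.

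Of 13 genes for NEDD8 removal and cullin exchange, 2 rose and 3 fell with SMARCB1 in DMSO, with a median of -0.01 (6 and 2 on the spike-in scale, median 0.16). Over all genes 65% were called, 33.5% higher and 31.6% lower. COPS7A, a COP9 signalosome subunit, had 41, 41.3 and 39.5 CPM in GFP cells in DMSO and 27.9, 28 and 27.2 CPM in SMARCB1 cells in DMSO. It was lower in each SMARCB1 library (-0.55, SE 0.05, adjusted p 7.7e-09). The small subunit COPS9 rose by 0.13 (SE 0.04, adjusted p 0.0112), a call lost without replicate 1 or 2 of GFP in DMSO (adjusted p 0.0569 and 0.0662). SENP8, the protease that matures NEDD8, passed narrowly for SMARCB1 with dBRD9-A (0.20, SE 0.09, adjusted p 0.0497), and 11 of 12 fits with 1 library left out ended that call (adjusted p 0.0534 to 0.2), as did spike-in scaling (-0.13, adjusted p 0.299). With dBRD9-A in GFP cells COPS7A lay at 44.7 to 48.6 CPM, above all DMSO libraries, a rise of 0.19 (SE 0.04, adjusted p 0.00658).

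**Figure D4:**
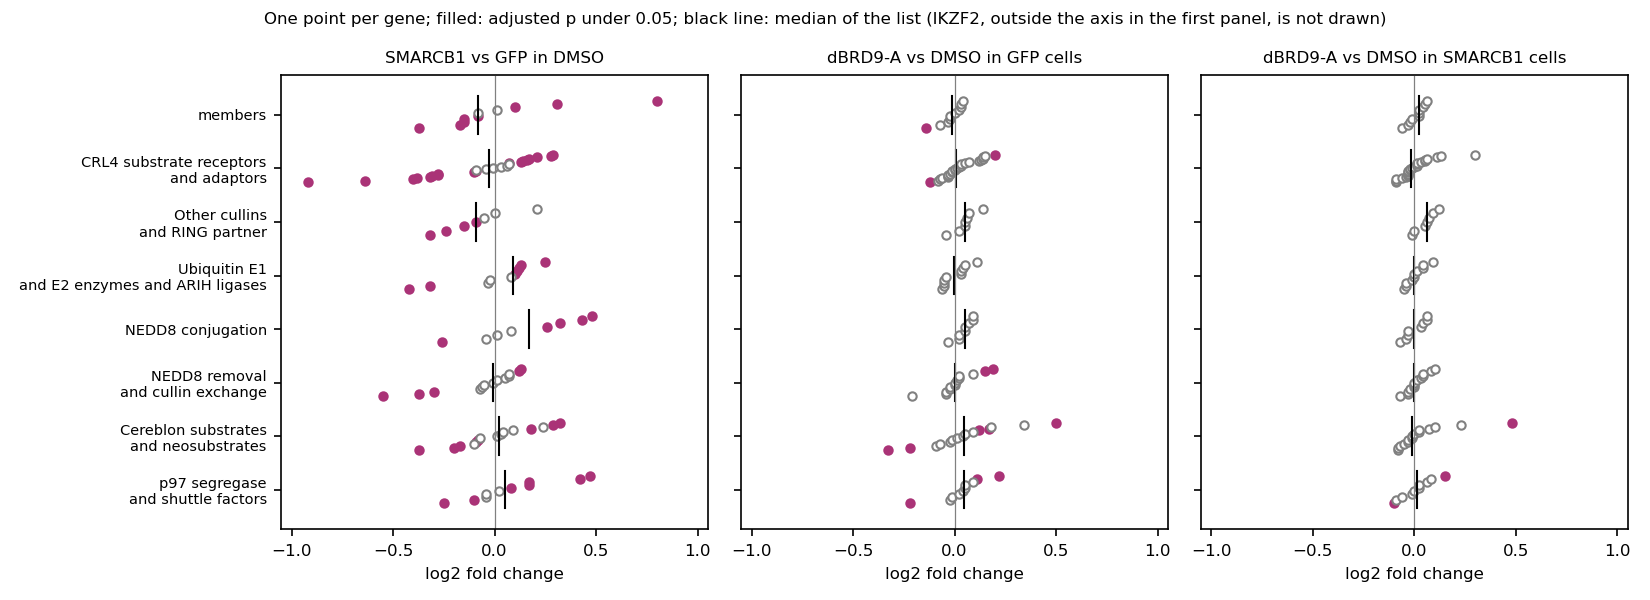
Log2 fold changes on the TMM scale for the members and 7 related lists in 3 comparisons, with 1 point per gene (filled where the adjusted p is under 0.05) and a line at each list's median. IKZF2 is not drawn in any panel, being outside the axis for SMARCB1 in DMSO. For dBRD9-A in GFP cells it was at 0.81 in edgeR's test (SE 0.72, adjusted p 0.516). Filled points are many on both sides of 0 for SMARCB1 in DMSO and few for dBRD9-A. There ZNF692, at 0.50 in GFP and 0.48 in SMARCB1 cells, lies farthest to the right of the points drawn. On the spike-in scale the points of GFP cells with dBRD9-A centre on 0.36.

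Proteins that cereblon ubiquitinates, alone or with a bound drug, were followed as 21 genes, of which 16 were tested. IKZF1 and ZBTB16 had no count in any library, and IKZF3, ZNF827 and TP63 had at most 9, so these drug-dependent targets were near or at the detection limit. IKZF2, which encodes the transcription factor Helios, had 4, 0 and 5 counts in GFP cells in DMSO and 4, 8 and 0 in GFP cells with dBRD9-A. It had 1282, 1350 and 2033 counts in SMARCB1 cells in DMSO and 1207, 1649 and 1326 with dBRD9-A, or 33.6 to 35 and 30 to 30.9 CPM. IKZF2 thus had few or no counts in the GFP libraries and was well detected in every SMARCB1 library. It passed the filter on low counts through the SMARCB1 libraries only, so a test of SMARCB1 against GFP adds nothing to these counts. In SMARCB1 cells its libraries with dBRD9-A lay below those in DMSO, with a change of -0.17 (SE 0.07) that did not pass the test (adjusted p 0.306). It passed on the spike-in scale (-0.31, adjusted p 0.0363).

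With SMARCB1 in DMSO, 4 of the 16 rose and 5 fell, against 33.5% and 31.6% of all genes, with a median of 0.02 (8 and 0 on the spike-in scale, median 0.19). Those that rose include IKZF2, which was tested only because of its SMARCB1 libraries. With dBRD9-A, 3 rose and 2 fell in GFP cells, where 15.9% of all genes were called, and 1 rose in SMARCB1 cells, where 1.93% were. With spike-in scaling 13 rose and 0 fell in GFP cells, against 71.8% of all genes called, and 0 rose and 2 fell in SMARCB1 cells, against 5.54%. ZNF692, a zinc finger protein degraded in the presence of pomalidomide, had 6.16, 5.99 and 5.34 CPM in GFP cells in DMSO and 7.97, 8.82 and 7.91 CPM with dBRD9-A. In SMARCB1 cells it had 4.45, 4.64 and 4.46 CPM in DMSO and 5.87, 6.86 and 6.14 CPM with dBRD9-A. Every library with dBRD9-A was above every library in DMSO of the same cell state, with log2 fold changes of 0.50 (SE 0.08, adjusted p 0.00041) and 0.48 (SE 0.09, adjusted p 0.0056). The interaction was -0.02 (SE 0.12, adjusted p 0.977). On the spike-in scale the changes were 0.86 (adjusted p 2.44e-08) in GFP cells and 0.34 (adjusted p 0.0516) in SMARCB1 cells. GLUL, the glutamine synthetase and a natural cereblon substrate, had 10, 8.92 and 10.3 CPM in GFP cells in DMSO and 7.46, 8.03 and 7.85 CPM with dBRD9-A, a fall of 0.33 on the log2 scale (SE 0.07, adjusted p 0.00441) that on the spike-in scale was 0.03 (adjusted p 0.805). These are mRNA levels, and protein was not measured.

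Downstream of the ligase, the p97 segregase unfolds ubiquitinated proteins and shuttle factors carry them to the proteasome. Of 10 such genes, 5 rose and 2 fell with SMARCB1 in DMSO, near the 65% of all genes called, with a median of 0.05 (6 and 0 on the spike-in scale, median 0.22). With dBRD9-A the median of the 10 was 0.04 in GFP cells and 0.01 in SMARCB1 cells (0.40 and -0.13 on the spike-in scale). The list as a whole thus did not fall relative to the typical gene. RAD23B, a shuttle factor, had 679, 693 and 697 CPM in GFP cells in DMSO and 591, 601 and 584 CPM with dBRD9-A. The groups did not overlap, and it fell by 0.22 on the log2 scale (SE 0.02, adjusted p 3.82e-06), whereas on the spike-in scale it rose by 0.14 (adjusted p 0.0469).

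In SMARCB1 cells RAD23B went from 726, 737 and 726 CPM to 683, 675 and 691 CPM (-0.10, SE 0.02, adjusted p 0.0459). The groups did not overlap, but 10 of 12 fits with 1 library left out ended that call (adjusted p 0.0523 to 0.182). The shuttle factor UBQLN4 fell with SMARCB1 in DMSO by 0.25 on the log2 scale (SE 0.06, adjusted p 0.000874), and was at -0.09 (adjusted p 0.356) on the spike-in scale.

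The genes whose pattern over the 12 libraries was most like that of CRBN were found by Pearson correlation of log2 CPM among 12503 genes with a mean of at least 50 counts and no library at 0. They were RNF181 (r = 0.936), IGDCC4 (0.930), ENSG00000152022.7, for which the names table gives no symbol (0.920), ZRANB2 (0.918) and C18orf21 (0.917). The 12 libraries fall into GFP and SMARCB1 sets, and the values are a description with no test.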

How the data were processed

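Messenger RNA was sequenced in 12 libraries of G401 cells, prepared with Qiagen RNeasy and stranded TruSeq mRNA kits per the labels' protocols. The 3 deposited tables hold expected counts per gene, as the authors' table names and values show. The submitters' processing notes list STAR, RSEM 1.3.1 and DESeq2 and the builds GRCh37 and hg19, with no role or order. RSEM shares reads that map to several genes among them. The annotation and strand setting are not given in the sources used here. Libraries that occur in several tables have the same values in each. Spike-in RNAs made up 0.9634% to 1.302% of counts and stayed out of library sizes.

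Counts were rounded and tested in R 4.3.3 with edgeR 4.0.16 (filterByExpr, minimum count 10, 15750 genes, TMM factors 0.9765 to 1.016, quasi-likelihood fit with 1 coefficient per group over all libraries), with Benjamini-Hochberg adjustment over all genes and a threshold of 0.05. CPM values use TMM-scaled library sizes. Alternatives were spike-in scaling, DESeq2 1.42.0 (size factors and Wald test), no filter, the groups compared alone, a replicate block, a fold limit of 0.3 and leaving out each library. The procedure was tested on simulated counts. Intervals are at 95%. Depth limits counting precision only. Replicate pairs differed by more than sampling noise.

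The members and lists were chosen with earlier results of these data known. Besides the members, SMARCB1 and BRD9, the gene with the largest called rise and fall of each list and comparison was named (mean of at least 50 counts), and the 5 genes most correlated with CRBN. Results for 1 gene that this rule named are not reported here. Symbols matched 51996 of 57820 identifiers. Gene positions and overlaps come from GENCODE 29 (GRCh38), which differs from the authors' build, and promoters from RefSeq on GRCh38.p14.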

Additional observations from a re-analysis of the deposited data

Results flagged for a closer look

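For 2 genes of the related lists the change with dBRD9-A differed between SMARCB1 and GFP cells in edgeR's interaction test. For DCAF5 the interaction was -0.23 (SE 0.05, adjusted p 0.0212), with a rise in GFP cells and overlapping levels in SMARCB1 cells. It was lost without replicate 3 of GFP in DMSO, replicate 3 of GFP with dBRD9-A or replicate 2 of SMARCB1 in DMSO (adjusted p 0.052 to 0.0639). For RAD23B the interaction was 0.12 (SE 0.03, adjusted p 0.0475), the fall with dBRD9-A being 0.22 in GFP cells and 0.10 in SMARCB1 cells on the log2 scale. That call ended in 10 of 12 fits with 1 library left out (adjusted p 0.0721 to 0.157) and was -0.37 on the spike-in scale, where all genes shifted by -0.49. SMARCB1 mRNA was itself lower with dBRD9-A in SMARCB1 cells, which cannot be told apart from either interaction.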

How the results depend on the processing

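Over 155 pairs of a named gene and a comparison, 2757 alternative values were computed. Of these, 2596 kept direction and side of the threshold, 84 lost the call, 39 gained it and 38 changed sign where either value was called. All 38 sign changes came with spike-in scaling. For SMARCB1 in DMSO they were DDB1 (0.09), CUL4A (0.01) and UBE2G1 (0.02). For SMARCB1 with dBRD9-A they were RBX1 (-0.25), UBE2D3 (-0.01), NEDD8 (-0.27), BRD9 (-0.12), DCAF15 (-0.13), DCAF6 (-0.08), DTL (-0.18), UBA6 (-0.09), COPS9 (-0.20), SENP8 (-0.13) and RAD23B (-0.12). For dBRD9-A in GFP cells they were DDB1 (0.34), CUL4B (0.22), UBE2G1 (0.33), NEDD8 (0.29), COPS5 (0.34), DDB2 (0.36), DTL (0.24), GLUL (0.03), UBQLN4 (0.34) and RAD23B (0.14). For the interaction they were DDB1 (-0.46), CUL4B (-0.36), UBE2G1 (-0.42), UBE2D3 (-0.48), NEDD8 (-0.45), UBE2M (-0.47), COPS5 (-0.43), DDB2 (-0.48), DTL (-0.37), DCUN1D3 (-0.49), DCUN1D4 (-0.49), SENP8 (-0.37), UBQLN4 (-0.48) and RAD23B (-0.37). Members called under spike-in scaling were 5 for SMARCB1 in DMSO, 9 with dBRD9-A, 10 for dBRD9-A in GFP cells, 0 in SMARCB1 cells and 10 for the interaction, and under the fold limit 3, 3, 0, 0 and 0. With 1 library left out they ranged from 6 to 8, 6 to 7, 1 to 1, 0 to 0 and 0 to 1. Genes called over the whole table under spike-in scaling were 6831 higher and 2581 lower, 2129 and 9046, 11083 and 227 (11310 in all), 39 and 834 (873), and 66 and 11204 (11270). The fold limit gave 6536, 6317, 855, 118 and 305. For dBRD9-A in SMARCB1 cells, 304 in the test as reported, no filter gave 652, the groups compared alone 159, and leaving out a library 169 to 422. The cause of these shifts was not tested. Deviations of same-numbered replicates had correlations of -0.0559 to 0.0611 over 12 pairs, so no effect shared by them was visible. These values cannot tell whether same-numbered libraries were prepared together, which is not given in the sources used here. With the replicate block 8, 7, 1, 0 and 0 members were called, and DTL in GFP cells (-0.12), RAD23B in SMARCB1 cells (-0.10) and the interaction of RAD23B (0.12) lost their calls. The interaction has no fit with the groups compared alone, since it needs all 4. Genes with few or no counts in all libraries, such as IKZF1 (0) and TP63 (at most 1), did not pass the filter and have no test.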
